A study of Mus musculus with 12 samples.

Results

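The genes described here carry an Mrpl or Mrps name, and all but Mrps36 encode proteins placed in the mitochondrial ribosome. They were chosen by name alone, as every named row with Mrpl or Mrps followed by a number and at most 1 letter, with 1 row kept per name (that with the highest mean) and a mean of at least 1 FPKM over the 12 libraries. The rule gave 73 genes of the 13508 genes kept, 46 named Mrpl and 27 named Mrps. All 73 passed the mean minimum and the filter on low values, and 12823 genes were tested in all. FPKM divides a gene's fragments by its transcript length and by the library's mapped fragments.

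The libraries came from mouse embryonic stem cells (strain 129SvEv): lines 18 and 26 are wild type (WT), and lines 25 and 39 are Arkadia-/-, called null here. Arkadia, encoded by Rnf111, is a ubiquitin ligase of the Activin and Nodal signalling pathway. Every line was grown in 2i medium with LIF, then held for 24 h in N2B27 medium on fibronectin and for 4 h in 10 µM SB431542 (SB), which blocks the Activin receptor kinases. One SB dish per line was then collected, and others were washed and received 10 ng/ml Activin A for 3 h or 6 h, so that each of the 6 groups holds 1 library from each of 2 lines. No group had fresh medium without Activin, so Activin cannot be told apart from the removal of SB, the wash and the hours in culture. Both Activin times of a genotype are compared with the same SB libraries. The labels do not say how the lines were derived or whether they are sister clones, and p-values measure only the spread between these lines.

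Mitochondria keep a small genome that encodes core subunits of the respiratory chain and ATP synthase, and a ribosome of their own translates it. The ribosomal RNAs come from that genome, whereas all of the ribosome's proteins are encoded in the nucleus, made in the cytosol and imported. Some of these proteins have counterparts in bacterial ribosomes, and others are found only in mitochondrial ones. The small subunit decodes the messenger RNA, and the large subunit joins the amino acids and releases the chain at the inner membrane. Nuclear genes for mitochondrial proteins are known targets of the transcription factors NRF1, GABP (an ETS family factor) and YY1.

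Promoter windows were read from RefSeq (GRCm38.p6), from 250 bases before each gene's start to 50 bases from the start on, and 65 of the 73 members matched, with 71 windows. The motif letters searched, on both strands and counted separately, were GCNTGCGC for NRF1, a part of its longer consensus, CCGGAAG for ETS factors and AAGATGGC for YY1. NRF1 letters stood in 29.6% of the members' windows, in 9.95% of all 32851 windows and in 19.4% of the windows of tested genes. ETS letters stood in 32.4%, 8.86% and 17.2%, and YY1 letters in 15.5%, 2.75% and 4.29%. At least 1 of the 3 was in 60.6% of the members' windows, in 19.0% of all windows and in 35.2% of those of tested genes. Median GC was 58.3% in the members' windows, 52.7% in all windows and 61.0% in those of tested genes. A match of letters is a description of the sequence and not a binding site.

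Stretches of these windows are printed 5′ to 3′ on the gene's strand, from 250 bases before the start to 20 bases from the start on, with motif matches in capitals. Mrpl41 (chr2:24975079-24975348, minus strand) is shown because it had the largest rise among called members, Mrps2 (chr2:28467816-28468085, plus strand) because it had the largest fall, Mrpl52 (chr14:54426659-54426928, plus strand) because it was called in all 4 responses to Activin, and Mrpl12 (chr11:120484387-120484656, plus strand) because it is among the 3 members with the highest level. In RefSeq, Mrps11 (plus strand) and Mrpl46 (minus strand) have 41 bases between their starts and are transcribed away from each other. In GENCODE M21, used for gene coordinates, the genes overlap, with Mrps11 starting at base 78783119 and Mrpl46 at base 78783531. The sequence between the RefSeq starts with 20 bases on either side (chr7:78783070-78783150, plus strand) is shown because the pair share it.
Mrpl41: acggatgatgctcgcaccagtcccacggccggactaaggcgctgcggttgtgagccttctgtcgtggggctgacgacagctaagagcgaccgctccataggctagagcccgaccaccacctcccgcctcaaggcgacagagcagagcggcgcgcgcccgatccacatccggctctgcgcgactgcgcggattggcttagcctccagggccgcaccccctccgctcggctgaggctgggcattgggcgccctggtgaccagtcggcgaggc
Mrps2: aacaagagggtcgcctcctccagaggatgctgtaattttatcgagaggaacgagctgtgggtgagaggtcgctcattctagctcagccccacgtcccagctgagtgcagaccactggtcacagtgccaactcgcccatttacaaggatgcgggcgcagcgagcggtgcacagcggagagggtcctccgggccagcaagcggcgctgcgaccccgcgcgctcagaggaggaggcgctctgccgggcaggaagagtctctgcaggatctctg
Mrpl52: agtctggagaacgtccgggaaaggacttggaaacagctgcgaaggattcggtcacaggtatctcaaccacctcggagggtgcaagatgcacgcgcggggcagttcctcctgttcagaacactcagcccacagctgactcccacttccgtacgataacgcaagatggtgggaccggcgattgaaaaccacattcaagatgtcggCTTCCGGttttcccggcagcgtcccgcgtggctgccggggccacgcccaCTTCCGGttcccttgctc
Mrpl12: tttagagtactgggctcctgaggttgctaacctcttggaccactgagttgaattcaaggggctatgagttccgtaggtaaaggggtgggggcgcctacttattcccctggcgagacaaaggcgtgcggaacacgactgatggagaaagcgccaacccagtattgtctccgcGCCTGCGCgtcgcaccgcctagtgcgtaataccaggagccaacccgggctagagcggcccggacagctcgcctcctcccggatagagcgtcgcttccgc
Mrps11 and Mrpl46: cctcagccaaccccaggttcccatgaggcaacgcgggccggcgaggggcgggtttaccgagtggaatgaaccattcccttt
Mrpl52 holds ETS letters 47 bases before its start and again at base 3 from the start on, and Mrpl12 holds NRF1 letters 79 bases before its start. The printed stretches of Mrpl41 and Mrps2 and the Mrps11 and Mrpl46 sequence hold none of the 3 motifs. The full Mrps11 window holds YY1 letters that are not wholly within the printed sequence.

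All 73 members were expressed well above the minimum in these cells, and the lowest of them stood at the 64.4th percentile of tested genes. Mean FPKM ran from 13.1 to 309 with a median of 82.7, against a median of 6.51 for all tested genes. Mrpl13 (309), Mrpl12 (268) and Mrpl28 (267), which all encode large-subunit proteins with bacterial counterparts, were the highest. The lowest were 3 genes of the small subunit, Mrps5 (13.1), Mrps2 (22.7) and Mrps31 (29.5). The median of the 29 large-subunit members with a bacterial counterpart was 108 FPKM, and that of the 19 without one was 76.8. For the small subunit the medians were 77.2 (15 members) and 80.5 (9 members), and Mrps36, whose product is now placed in the alpha-ketoglutarate dehydrogenase complex, stood at 58.6.

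**Figure D1:**
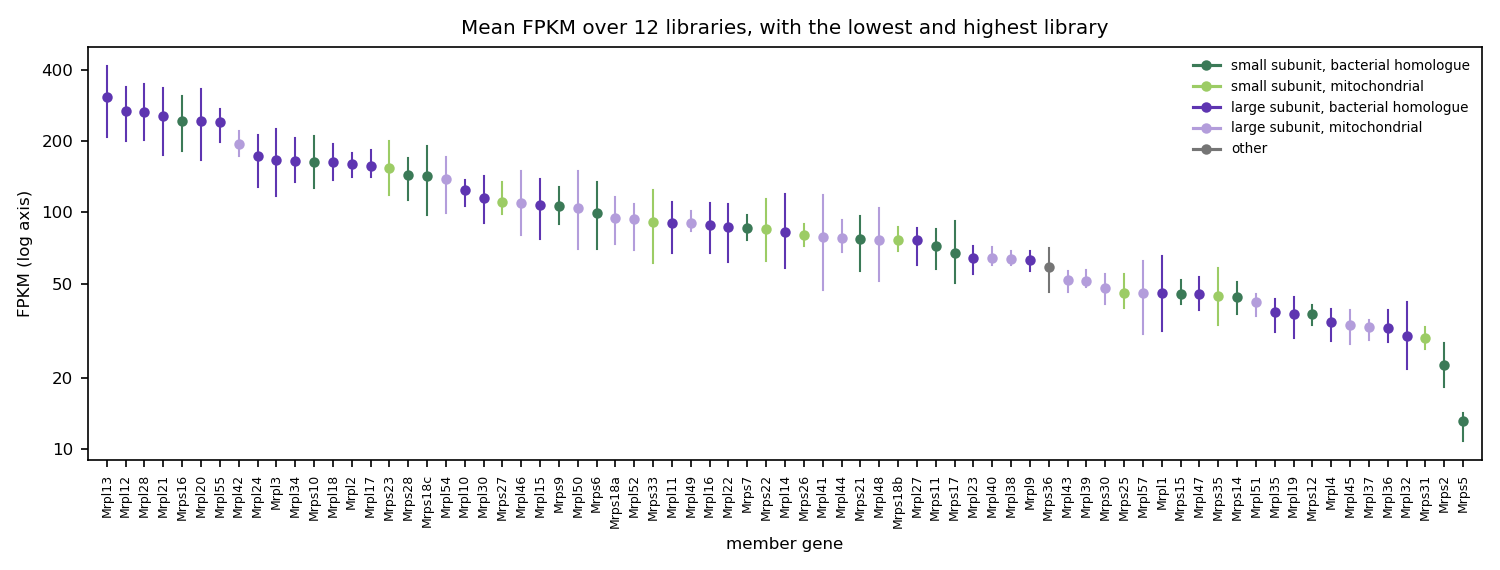
FPKM of each member (vertical, log axis), ordered by the mean over 12 libraries; points are means, lines run from the lowest to the highest library, and colours give the subunit and whether a bacterial counterpart is known. Means fall from 309 FPKM for Mrpl13 to 13.1 for Mrps5, and both subunits are spread along the order.

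Several rows limit what a value stands for. At 5 members, Mrpl35, Mrpl36, Mrps25, Mrpl17 and Mrps26, the locus spanned under 0.5 of the length of the annotated gene. The loci of 25 members also held another named gene, and without a statement on strand, reads of overlapping genes cannot be told apart. Mrpl48 can share reads with the pseudogene row Mrpl48-ps (mean 26.8 FPKM), so its value is uncertain. Mrps16 had 2 rows with the same RefSeq identifier, at 245 and 142 FPKM. Mrps24, Mrpl33 and Mrpl53 appeared only in rows that join them with a neighbouring gene and are not members.

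Rnf111 was at 3.19 to 4.27 FPKM in WT libraries and at 0.539 to 0.855 in null ones. The stem cell markers Pou5f1, Sox2, Nanog, Zfp42, Esrrb and Sall4 were all present, with Pou5f1 at 562 to 926 FPKM and Esrrb at 1.55 to 3.47. The 5 fibroblast markers in the table summed to 8.51 to 16.1 FPKM, the 3 of primitive endoderm to 0.919 to 3.34 and the 4 of trophoblast to 4.48 to 9.22. Read totals are unknown. Depth relative to null line 39 at 6 h, judged from the steps between low values, ran up to 1.81.

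After 3 h of Activin in WT lines, most members were higher in FPKM, but this direction depended on the scaling. limma on log2(FPKM + 1), with p-values adjusted by Benjamini-Hochberg across every tested gene and calls made under 0.05, called 23 members up and 1 down, where 12.6% of all tested genes were called up and 9.83% down. The median change of the 73 members was 0.33 log2 units, against -0.01 for all tested genes. With FPKM scaled to the same sum in every library, 8 members were called up and 16 down (6.0% and 29.6% of all tested genes), with a median of 0.03 against -0.26 for all tested genes. Both Activin libraries lay above both SB libraries for 59 members and below them for 6, where 34.9% and 35.6% of all tested genes did so. The median was 0.34 in line 18 and 0.32 in line 26. With the cell line as a replicate block, 52 members were called up and 3 down (21.3% and 15.9% of all tested genes). Without line 18 limma called 0 members (1.06% of all tested genes up and 0.0546% down), with 4 members and 13.2% of all tested genes at an unadjusted p under 0.05. Without line 26 it called 0 (0.983% and 0.0858%), with 6 members and 16.3% of all tested genes at an unadjusted p under 0.05. The members' share at an unadjusted p was thus below that of all genes, and the medians were 0.32 and 0.34. Without null line 25, 48 were called up and 2 down (20.1% and 13.9% of all tested genes), and without null line 39 the counts were equal (20% and 13.9%), since the spread is pooled over all groups.

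Mrpl41 (chr2:24974117-24975098, minus strand), a large-subunit gene without a bacterial counterpart, had the largest rise. It stood at 48.3 FPKM under SB, 76.3 at 3 h and 79.0 at 6 h in WT line 18, and in line 26 it stood at 47.1, 80.1 and 80. For null line 25 the values were 53.1, 90.8 and 86.4 FPKM, and for null line 39 they were 81.3, 107 and 119. Every Activin library of a line was above its own SB library, but SB in null line 39 was above every WT library. The WT change was 0.70 log2 units at 3 h (SE 0.197, limma adjusted p = 0.036) and 0.72 at 6 h (adjusted p = 0.040). In null lines it was 0.58 and 0.62 (adjusted p = 0.084 and 0.070; 0.0051 and 0.0032 with the replicate block).

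**Figure D2:**
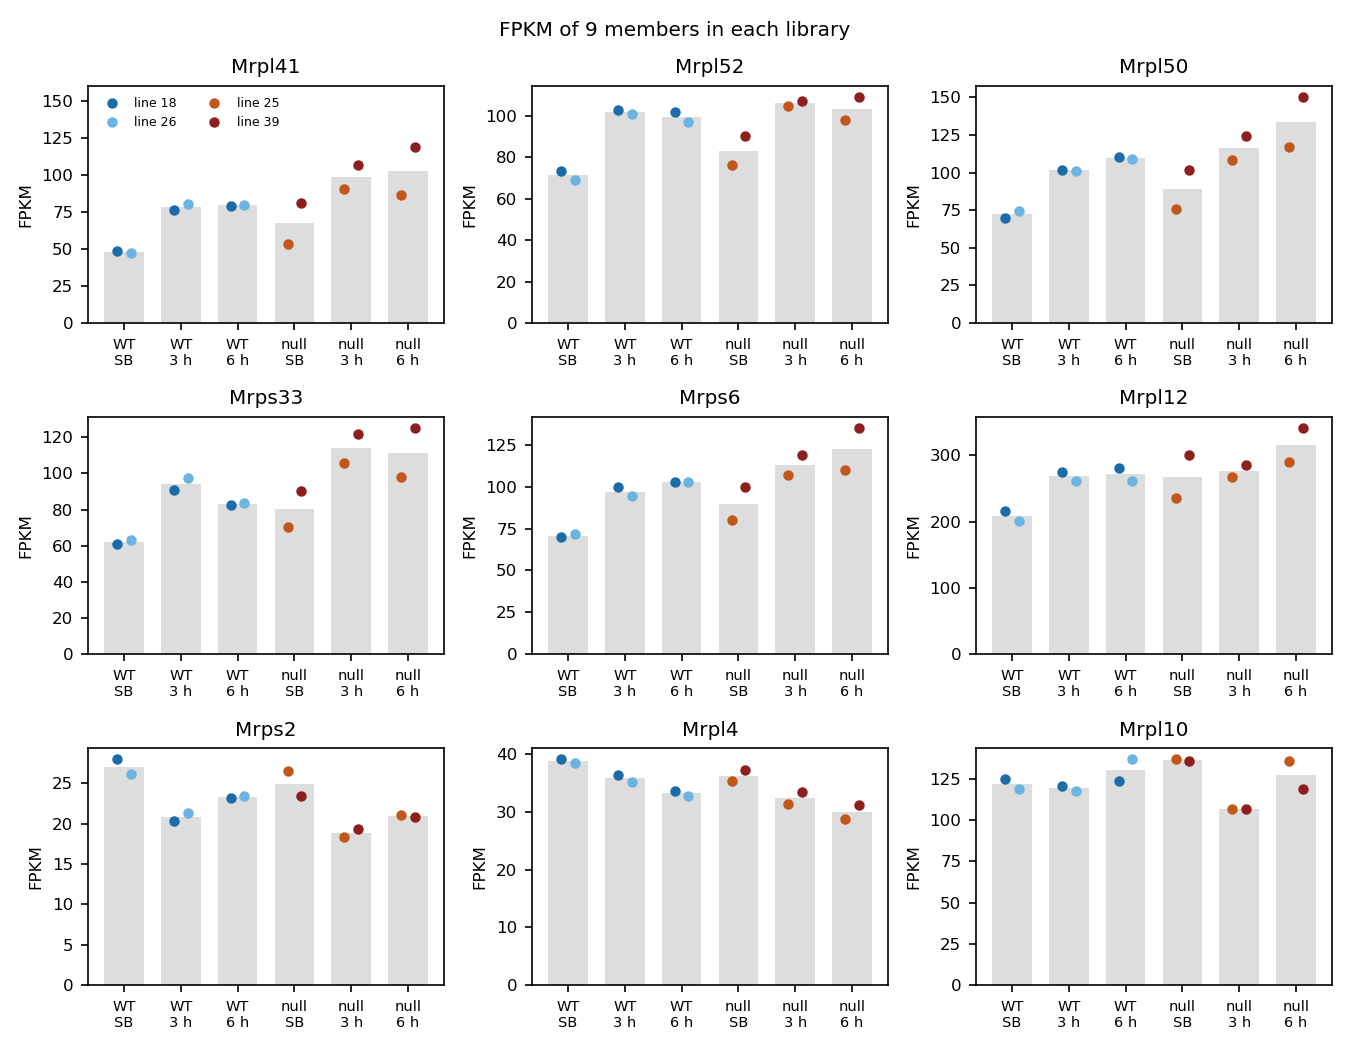
FPKM (vertical axes) of 9 members in the 6 groups, where points are libraries (colour gives the line) and bars are means of the 2 lines of a group. Mrpl41, Mrpl52, Mrpl50, Mrps33 and Mrps6 were higher with Activin in each line, Mrps2 and Mrpl4 were lower in each line, and line 39 was the higher null line in SB for Mrpl41 (81.3 against 53.1 FPKM).

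Mrpl48, for a protein of the central protuberance of the large subunit, rose by 0.65 log2 units in WT lines at 3 h (SE 0.161, limma adjusted p = 0.025), from 51.2 and 53.6 FPKM in SB to 79.4 and 85.7. Its pseudogene row rose likewise, from 16.4 and 16.6 to 27.7 and 29.6 FPKM. Mrpl20, for a large-subunit protein with a bacterial counterpart, went from 168 and 166 to 254 and 255 FPKM (0.61, SE 0.146, adjusted p = 0.023). For both genes the SB and 3 h libraries of the WT lines did not overlap.

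Mrps2 (chr2:28468066-28471178, plus strand), for a small-subunit protein with a bacterial counterpart, was the only member called down in WT lines at 3 h. It stood at 28.0 FPKM under SB, 20.4 at 3 h and 23.2 at 6 h in line 18, and at 26.2, 21.3 and 23.4 in line 26. In null line 25 the values were 26.5, 18.3 and 21.1 FPKM, and in null line 39 they were 23.4, 19.4 and 20.8. The 3 h library was the lowest of each line. Mrps2 fell by 0.36 log2 units in WT lines (SE 0.0706, limma adjusted p = 0.011) and by 0.38 in null lines (adjusted p = 0.012) at 3 h. At 6 h the changes were -0.21 and -0.24 (adjusted p = 0.075 and 0.059; 0.058 and 0.042 with the replicate block).

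By structure, the calls in WT lines at 3 h covered both subunits. Among large-subunit members with a bacterial counterpart 9 of 29 rose and 0 fell (median 0.35), and among those without one 6 of 19 rose and 0 fell (median 0.17). In the small subunit 5 of 15 with a counterpart rose and 1 fell (median 0.33), and 2 of 9 without one rose (median 0.20). Of 4 members around the exit tunnel, through which the new chain leaves, 2 rose (Mrpl22 and Mrpl24). The differences between these classes were not tested.

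The stalk, where translation factors bind, showed unequal changes. Mrpl12, the stalk protein itself, had 216 FPKM under SB, 275 at 3 h and 281 at 6 h in WT line 18, and 201, 262 and 262 in line 26. Its change in WT lines was 0.36 log2 units at 3 h (SE 0.122, limma adjusted p = 0.062; 0.0052 with the replicate block). Mrpl11, at the stalk base, rose by 0.46 (adjusted p = 0.048), from 67.6 and 70.2 to 95.8 and 94.5 FPKM. Mrpl10, which ties the stalk to the base, changed by -0.03 in WT lines, with 125 and 119 FPKM in SB and 121 and 118 at 3 h. In null lines Mrpl10 went from 137 and 136 to 107 in each line, a fall of 0.35 (SE 0.0772, adjusted p = 0.022), and stood at 136 and 119 at 6 h. The difference between genotypes in the 3 h response was not called for any member.

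Mrps12, a protein of the decoding centre, was at 40.4 and 37.6 FPKM in WT lines in SB and at 33.7 and 35.9 at 3 h (-0.16, limma adjusted p = 0.13), and its locus also holds Sars2. Mrpl45, which holds the ribosome at the inner membrane, was at 38.7 and 36.5 FPKM in SB and at 33.3 and 32.3 at 3 h (-0.19, adjusted p = 0.14; 0.019 with the replicate block). Mrpl44, a protein with an RNase III fold, was at 70.7 and 67.9 and then at 77.2 and 74.6 FPKM (0.13, adjusted p = 0.39; 0.046 with the replicate block). Mrpl45 and Mrpl44 were thus called with the block alone, and Mrps12 in neither fit. Of the members with the highest levels, Mrpl13 went from 208 and 234 to 319 and 338 FPKM (0.57, adjusted p = 0.064; 0.0015 with the replicate block) and Mrpl28 changed by 0.44 (adjusted p = 0.072; 0.0035 with the replicate block). Mrps5 and Mrps31, among the lowest, changed by -0.10 and 0.09 (adjusted p = 0.49 and 0.28).

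Paralogs did not share 1 pattern. Mrps18c rose by 0.60 log2 units in WT lines at 3 h (SE 0.15, limma adjusted p = 0.026), from 97.2 and 103 to 149 and 155 FPKM, although its locus also holds Helq. Mrps18a, whose product sits in the large subunit despite its name, changed by 0.36 at 3 h (adjusted p = 0.063; 0.0067 with the replicate block) and rose by 0.44 at 6 h (adjusted p = 0.043). Mrps18b, for a small-subunit protein, changed by -0.02 at 3 h, with 78.5 and 75.6 FPKM in SB and 75.5 and 76.9 at 3 h. The paralogs Mrps30 and Mrpl37, both for large-subunit proteins, changed by 0.03 and -0.03. Mrps28 and Mrps36 rose by 0.41 and 0.39 (adjusted p = 0.032 and 0.038).

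At 6 h of Activin in WT lines, 12 members were called up and 1 down, where 9.59% and 6.31% of all tested genes were called, and the median change was 0.28 log2 units. Both Activin libraries lay above both SB libraries for 57 members (37.2% of all tested genes) and below them for 4 (32.2%). Mrpl41 had the largest rise, followed by Mrpl50 (0.60, SE 0.149, limma adjusted p = 0.031), a large-subunit gene, and Mrps6 (0.54, SE 0.122, adjusted p = 0.022), a small-subunit gene with a bacterial counterpart. Mrpl50 stood at 69.8 and 74.5 FPKM in SB and at 110 and 109 at 6 h, and Mrps6 at 69.8 and 71.6 and then at 103 in both lines. With the replicate block 52 were called up and 1 down (21.6% and 12.3% of all tested genes). Without line 18, 0 were called (0.811% of all tested genes up and 0.101% down), with 1 member and 11.7% of all tested genes at an unadjusted p under 0.05. Without line 26, 0 were called (0.585% and 0.109%), with 7 members and 15.4% of all tested genes at an unadjusted p under 0.05. By contrast, 50 were called up and 2 down without null line 25 (19.7% and 10.6% of all tested genes) and without null line 39 (19.7% and 10.7%). Between 3 h and 6 h in WT lines limma called 0 members, with 0 at an unadjusted p under 0.05, and the median difference was -0.02. With the replicate block it also called 0 (13 at an unadjusted p under 0.05; 3.7% and 2.94% of all tested genes called up and down). Without the block 1.22% of all tested genes were called up and 1.31% down.

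Mrpl4 (chr9:21002738-21008839, plus strand), for a large-subunit protein with a bacterial counterpart, was the member called down at 6 h in both genotypes. In order of SB, 3 h and 6 h, its FPKM were 39.1, 36.4 and 33.6 in WT line 18, then 38.4, 35.2 and 32.8 in line 26. The null lines had 35.3, 31.4 and 28.7 (line 25) and 37.2, 33.5 and 31.1 (line 39). Each line was lower at 3 h than in SB and lower again at 6 h. Mrpl4 fell by 0.22 log2 units at 6 h in WT lines (SE 0.0617, limma adjusted p = 0.045) and by 0.27 in null lines (adjusted p = 0.026). At 3 h the changes were -0.11 and -0.16 (adjusted p = 0.21 and 0.12; 0.040 and 0.018 with the replicate block).

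In null lines 2 members were called up and 2 down at 3 h, where 6.5% and 7.14% of all tested genes were called, and the median change was 0.17 log2 units. At 6 h 5 were called up and 1 down, where 7.87% and 5.53% of all tested genes were called, with a median of 0.22. Mrps33, for a small-subunit protein without a bacterial counterpart, rose by 0.51 at 3 h (SE 0.14, limma adjusted p = 0.044), from 70.1 to 106 FPKM in line 25 and from 90.1 to 122 in line 39. At 6 h Mrpl50 rose by 0.59 (adjusted p = 0.037), Mrps6 by 0.44 (adjusted p = 0.047) and Mrpl22, which lines the exit tunnel, by 0.36 (adjusted p = 0.049). With the replicate block 31 were called up and 6 down at 3 h (15.5% and 14.1% of all tested genes), and 42 up and 2 down at 6 h (19.4% and 12%). Without either WT line limma called 0 members at either time. Of all tested genes, 1.56% were then called up and 0.335% down at 3 h without line 18 or line 26, and at 6 h 2.11% and 0.881% without line 18 and 2.12% and 0.889% without line 26. At an unadjusted p under 0.05 there were 7 members at 3 h, where 21.9% and 21.8% of all tested genes passed, and 14 at 6 h, where 22.1% did. Without null line 25, 3 were called up and 0 down at 3 h (2.64% and 0.819% of all tested genes), and without null line 39, 32 up and 3 down (10.0% and 6.02%). At 6 h the counts were 21 up and 0 down without line 25 (8.59% and 2.45% of all tested genes), and 30 up and 2 down without line 39 (10.4% and 3.43%).

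The null lines differed from each other. At 3 h the median change was 0.21 log2 units in line 25 and 0.05 in line 39, and at 6 h it was 0.24 and 0.21. Both Activin libraries lay above both SB libraries for 30 members at 3 h (25.0% of all tested genes) and 28 at 6 h (26.9%), and below them for 13 at 3 h (30.1%) and 5 at 6 h (26.9%). Line 39 was above line 25 for 68 of the 73 members in SB, 66 at 3 h and 67 at 6 h, where 45.1%, 52.1% and 51.1% of all tested genes were. The median difference was 0.26, 0.14 and 0.23 log2 units, and between the WT lines it was -0.02 to 0.00. From 3 h to 6 h in null lines limma called 0 members, with 4 at an unadjusted p under 0.05, where 2.78% and 1.86% of all tested genes were called up and down. With the replicate block 7 were called up and 0 down (8.89% and 4.55% of all tested genes).

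**Figure D3:**
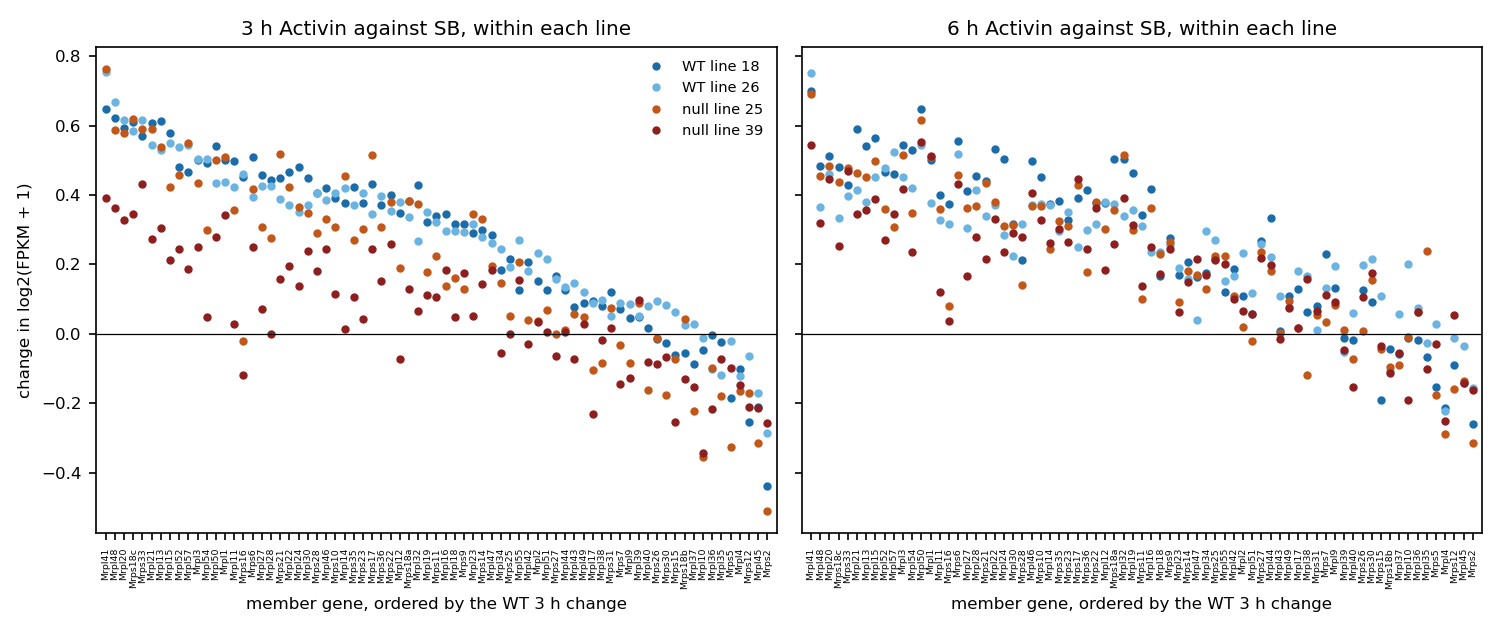
Change in log2(FPKM + 1) from SB to Activin (vertical) of each member in each of the 4 lines, at 3 h (left) and 6 h (right), with the members ordered by the mean WT change at 3 h. Most points lie above 0, those of null line 39 at 3 h lie lowest (median 0.05), and Mrps2 at the right end is below 0 in all lines.

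Mrpl52 (chr14:54426909-54429756, plus strand), for a large-subunit protein without a bacterial counterpart, was called in all 4 responses before any rescaling. Its values were 73.5 FPKM under SB, 103 at 3 h and 102 at 6 h in WT line 18, then 69.3, 101 and 96.9 in line 26, 76.2, 105 and 98.1 in null line 25, and 90.2, 107 and 109 in null line 39. Within each genotype the SB libraries were below all Activin libraries. Mrpl52 rose by 0.51 and 0.47 log2 units in WT lines (SE 0.0868, limma adjusted p = 0.0062 and 0.010) and by 0.35 and 0.31 in null lines (adjusted p = 0.031 and 0.047). The WT calls held under every scaling tried, but were lost without either WT line (limma adjusted p = 0.25 to 0.34). In null lines the 6 h call was lost under all 4 scalings, with changes of 0.11 to 0.17 (limma adjusted p = 0.054 to 0.19). The 3 h call was lost with the transcript length trend removed (0.10, adjusted p = 0.17) and with equal sums (0.11, adjusted p = 0.24). Leaving out either WT line or null line 25 also ended both null calls (limma adjusted p = 0.059 to 0.19). Over the 4 responses, 4 members were called in 3 (Mrpl22, Mrpl27, Mrpl50 and Mrps6), 8 in 2, 15 in 1 and 45 in none. With the replicate block 28 were called in all 4 and 11 in none. The change was above 0 in all 4 responses for 51 members and below 0 in all 4 for 6 (Mrpl4, Mrpl45, Mrps12, Mrps18b, Mrps2 and Mrps5). Counts over the 4 responses were made for members alone, so no share of all tested genes stands beside them. Both times of a genotype also share their SB libraries.

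Across the 12 libraries most members varied together. No such correlation is given for other genes of like level or length, so whether this is particular to the members was not tested. The correlation of a member's log2(FPKM + 1) with the mean of the other members had a median of 0.93 over the 73, was over 0.8 for 50 of them and was under 0.2 for 7. Those 7 were Mrpl45 (-0.83), Mrps2 (-0.78), Mrpl4 (-0.63), Mrpl37 (-0.37), Mrps12 (-0.32), Mrpl10 (-0.24) and Mrps5 (-0.14). Mrpl3, Mrpl46, Mrps23 and Mrps35 were at 0.99, and the libraries share lines, treatment and total. The 7 had a median level of 33.4 FPKM and a median coding length of 882 bases, and the 50 had 97.2 FPKM and 537 bases. Across the 73 genes the WT change at 3 h correlated with log2 mean FPKM at a Pearson r of 0.55 and with log2 coding length at -0.36. These are values across genes of the same libraries, which are not independent replicates.

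Short transcripts as a whole were higher after Activin in these files, and most members are short. The median annotated transcript length was 1290 bases for members and 2690 for tested genes with a length. In WT lines at 3 h, 737 other genes with transcripts under 750 bases had a median change of 0.32 log2 units, and 12 members had 0.41. From 1000 to 1500 bases the medians were 0.12 for 1320 other genes and 0.33 for 22 members. From 3000 to 5000 bases they were -0.09 for 3289 other genes and 0.34 for 13 members. In null lines at 3 h the members' medians in these 3 bins were 0.23, 0.14 and 0.19, and those of other genes 0.21, 0.05 and -0.06. In the same lines, from 1500 to 2000 bases both medians were -0.03 (7 members). Over 5000 bases the 2 members had -0.07 and other genes 0.02. In WT lines members had 0.09 and other genes 0.03 from 1500 to 2000 bases, and 0.15 and -0.05 over 5000. From 750 to 1000 bases the WT medians were 0.41 and 0.25, and from 2000 to 3000 they were 0.29 and -0.06. The 3000 to 5000 bin includes Mrpl35 and Mrps26, whose loci spanned under 0.5 of the annotated gene. With the trend on transcript length removed from each library, 16 members were called up and 5 down in WT lines at 3 h (12.4% and 9.37% of all tested genes) with a median of 0.17. In null lines at 3 h it was 1 up and 8 down (7.88% and 7.26% of all tested genes) with a median of 0.07. The part of transcript length in the members' change beyond that was not tested.

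**Figure D4:**
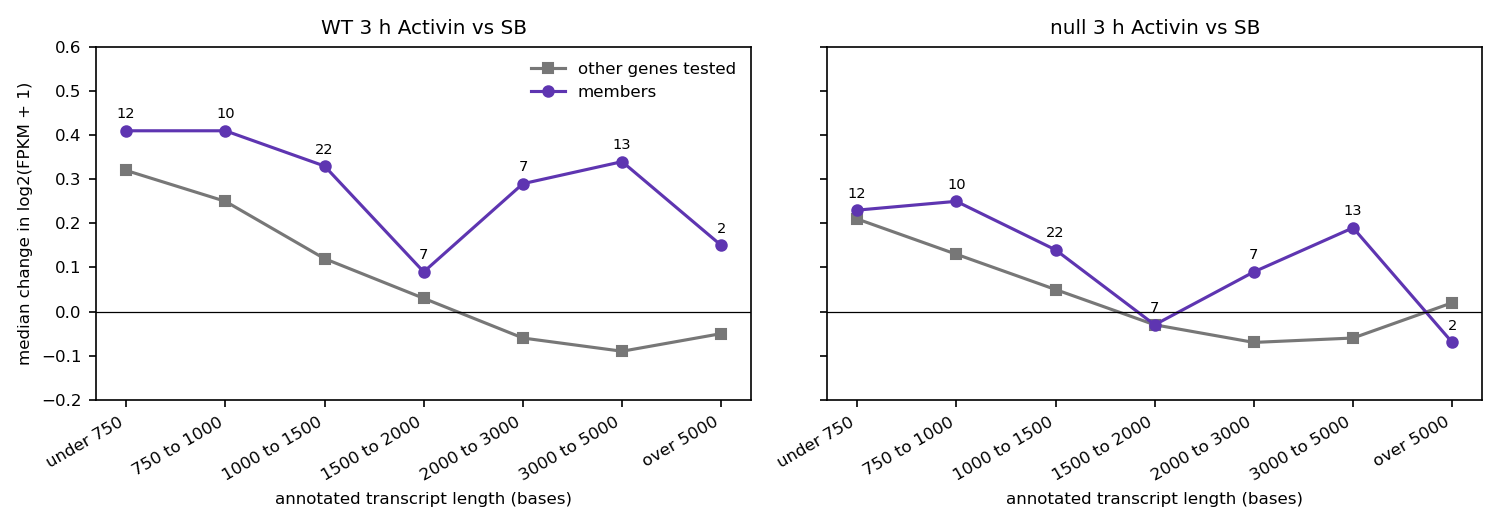
Median change in log2(FPKM + 1) (vertical) by annotated transcript length (horizontal) for members and for other tested genes, at 3 h in WT lines (left) and null lines (right); numbers give the members in each bin. In WT lines other genes fall from 0.32 under 750 bases to -0.09 at 3000 to 5000 bases, where the 13 members stand at 0.34.

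The members' share of all FPKM changed little. Summed over the 73 members, FPKM went from 6005 in SB to 7568 at 3 h and 7512 at 6 h in WT line 18, and from 5957 to 7529 and 7301 in line 26. The same sums were 6329, 7521 and 7583 in null line 25 and 7758, 8292 and 9079 in null line 39, so that line 39 in SB was above every WT library. FPKM summed over all loci rose as well, by 1.23-fold at 3 h in each WT line, where the members' sum rose by 1.26-fold. As a share, the members held 1.04% and 1.02% in WT lines in SB, 1.07% and 1.04% at 3 h and 1.11% and 1.09% at 6 h. In null line 25 the share was 1.05%, 0.965% and 1.09%, and in line 39 it was 1.07%, 1.06% and 1.13%. Null line 25 at 3 h stood apart, with 9.4% of its FPKM in the ribosomal RNA loci Gm42418 and Rn18s-rs5, against 1.98% to 5.27% in the other libraries. With these loci left out of the sum its share was 1.07%, and over the 12 libraries the share then ran from 1.06% to 1.16%. With every library scaled to the same sum, the median of all genes moved to -0.26 log2 units in WT lines and -0.22 in null lines at 3 h, and that of the members to 0.03 and -0.08. On that scale 1 member was called up and 19 down in null lines at 3 h (3.42% and 18.9% of all tested genes), beside the 8 and 16 in WT lines given above. The sums used for that scale include the ribosomal RNA loci, and their part in these counts was not tested. The bulk libraries cannot tell more RNA per cell from a change in other RNA, nor a change in the mix of cells from one in RNA per cell.

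**Figure D5:**
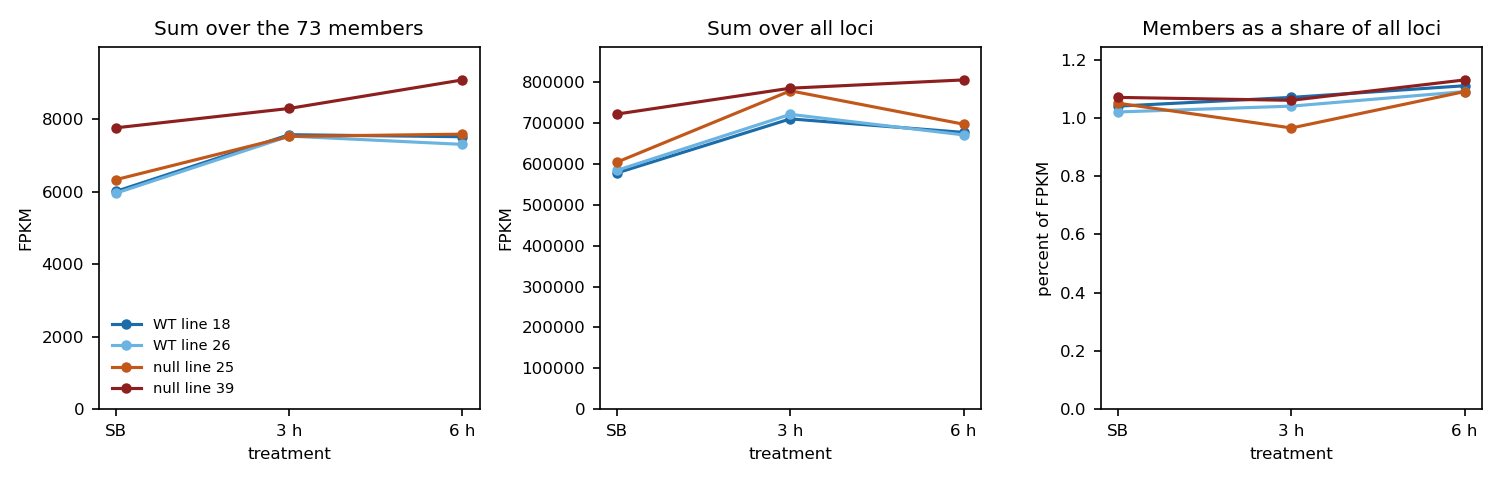
FPKM summed over the 73 members (left), over all loci (middle) and the members as a percent of all loci (right), in SB and at 3 h and 6 h of Activin, with a line per cell line and axes from 0. From SB to 3 h both sums rise in every line, and the share stays between 0.965% and 1.13%.

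Some calls were the same under every scaling tried, that is quantile normalization, removal of the trend on transcript length or on coding length, and scaling to the same sum. In WT lines at 3 h, 6 of the 23 members called up were called up under all 4 (Mrpl15, Mrpl20, Mrpl48, Mrpl52, Mrps18c and Mrps33), and Mrps2 was called down under all 4. At 6 h 6 of 12 were (Mrpl15, Mrpl22, Mrpl41, Mrpl50, Mrpl52 and Mrps6), and Mrpl4 was called down. In null lines Mrps33 was called up at 3 h and Mrpl50 at 6 h under all 4, and Mrpl10, Mrps2 (3 h) and Mrpl4 (6 h) were called down. These calls share the same libraries and carry the dependence on each WT line given above. The share of all called genes that keep their call under all 4 was not computed, so these members are not set apart by it.

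The comparison of null with WT lines gave no call among the members. In SB limma called 0 members (0.25% of all tested genes up and 0.0624% down), with 20 of 73 and 14.9% of all tested genes at an unadjusted p under 0.05, and 69 members (49.3% of all tested genes) were above 0, with a median of 0.18 log2 units. At 3 h it called 0 (0.133% up and 0.25% down of all tested genes), with 2 members and 12.9% of all tested genes at an unadjusted p under 0.05 and a median of 0.04. At 6 h it called 0 (0.148% and 0.0624%), with 4 members and 14.7% of all tested genes at an unadjusted p under 0.05 and a median of 0.14. On the means of the lines, 0 members and 0.0% of all tested genes were called, with 7 members and 13.3% of all tested genes at an unadjusted p under 0.05 and a median of 0.12. The SB median was lower after rescaling. With equal sums 36 members were above 0 in SB (24.2% of all tested genes), with a median of -0.0 against -0.16 for all tested genes. Under quantile normalization 54 were (46.9%), with a median of 0.06. With the transcript or coding length trend removed the medians were 0.1 and 0.08. In SB, summed FPKM was 722232 in line 39, 604602 in line 25, and 578104 and 584627 in the WT lines. The counts of calls differed by which null line was used, and fits with 1 null line were not rescaled. With line 39 as the only null line, 47 members were called up in SB and 0 down (12.4% and 3.55% of all tested genes), 2 up and 0 down at 3 h (0.593% and 0.468%), 35 up and 1 down at 6 h (9.47% and 2.29%), and 25 up and 0 down on the line means (7.41% and 1.9%). With line 25 as the only null line, limma called 0 in each. At an unadjusted p under 0.05 there were 11 members in SB, 19 at 3 h, 14 at 6 h and 12 on the line means, where 11.8%, 17.8%, 14.6% and 16.8% of all tested genes passed, and the SB median was 0.06.

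Without rescaling, the 3 h change was lower in null than in WT lines for all but 1 of the 73 members. This means a smaller rise for some and a larger fall for others, such as Mrpl10 (-0.35 in null and -0.03 in WT lines). The median difference was -0.15 log2 units, against -0.03 for all tested genes, of which 44.3% were above 0. limma called 0 members and 0.0% of all tested genes, with 2 members and 5.1% of all tested genes at an unadjusted p under 0.05. With the replicate block it also called 0, with 0.0234% of all tested genes called down, and 23 members and 12.4% of all tested genes were at an unadjusted p under 0.05. Without line 39 the median difference was -0.07 and without line 25 it was -0.22, with 0 called in each. At 6 h 0 were called (0 members and 2.98% of all tested genes at an unadjusted p under 0.05), with a median of -0.06. After rescaling, the 3 h difference was less uniform. Members above 0 were then 14 under quantile normalization (median -0.06) and 11 with equal sums (-0.09). They were 11 with the transcript length trend removed (-0.08) and 14 with the coding length trend removed (-0.06). In the same order, 50.2%, 55.3%, 46.7% and 47.2% of all tested genes were above 0.

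Other genes of mitochondrial translation moved less uniformly. For the list counts below, 12.6% of all tested genes were called up and 9.83% down in WT lines at 3 h. The counts were not tested against these shares, and the transcript lengths of the lists were not compared. Of 6 ribosomal proteins under other names, 2 rose in WT lines at 3 h and 0 fell: Chchd1, a small-subunit protein (156 to 261 FPKM, 0.74 log2 units, limma adjusted p = 0.039), and Ict1, a hydrolase built into the large subunit (0.42, adjusted p = 0.024). Of 25 genes for ribosome assembly and rRNA modification, 3 rose and 1 fell (median -0.01). Malsu1, a factor bound to the large subunit, rose by 0.56 (adjusted p = 0.047), the rRNA methyltransferase gene Rnmtl1 rose by 0.45 (adjusted p = 0.0048), and Mettl17, linked to small-subunit assembly, fell by 0.39 (adjusted p = 0.033). Of 15 translation factors and mRNA stability genes, 1 rose and 2 fell: Slirp, an mRNA-binding protein, by 0.60 upward (adjusted p = 0.040), the elongation factor gene Tufm by -0.44 (adjusted p = 0.020) and the ribosome recycling gene Gfm2 by -0.32 (adjusted p = 0.020).

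Of 20 genes that charge mitochondrial tRNAs, 0 rose and 3 fell in WT lines at 3 h, with a list median of -0.04. Among them were the synthetase genes Sars2 (-0.37) and Tars2 (-0.22), with limma adjusted p = 0.021 and 0.032. In mitochondrial transcription, 0 of 6 rose and 1 fell, Polrmt, the RNA polymerase (2.70 to 2.00 FPKM, -0.30, adjusted p = 0.045). Among 8 measured regulators of mitochondrial biogenesis 1 rose, Myc, from 9.42 to 13.8 FPKM (0.51, adjusted p = 0.0053). In null lines at 3 h Myc rose by 0.62 (adjusted p = 0.0032), with 2 of 8 regulators called up (6.5% of all tested genes). The members' median of 0.33 lay between those of tRNA charging and of 71 nuclear oxidative phosphorylation genes (0.44, 39 called up) and 76 cytosolic ribosomal protein genes (0.55, 58 called up). These comparison sets have median transcript lengths of 730 and 834 bases, and the differences between the sets were not tested. With the replicate block 21.3% of all tested genes were called up and 15.9% down at WT 3 h. The list counts were then 4 up and 0 down for the proteins under other names, 6 and 2 for assembly and 3 and 3 for translation factors. They were 2 and 5 for tRNA charging, 2 and 1 for transcription and 4 and 0 for regulators.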

How the data were processed

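The authors deposited FPKM per gene locus and library in 1 table of 17446 loci, per the file headers, from poly(A) RNA and 50 bp single reads, per the labels' protocols. The submitters' processing notes name mm10 as the build. For the aligner, the quantifier, the use of strand and any scaling, the tool or setting is not given in the sources used here.

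Unnamed loci (2666) and 27 named loci with a status other than OK were left out, and 1 locus was kept per name. Genes with at least 1 FPKM in at least 2 libraries were tested with limma 3.58.1 in R 4.3.3 on log2(FPKM + 1), which understates changes of low genes, with 6 group means, a variance trend and two-sided tests. Gene coordinates, transcript and coding lengths come from GENCODE M21 (GRCm38), as a stand-in for the authors' lengths. On data simulated for the WT 3 h comparison over 12511 genes, 100 genes were changed by 0.5 log2 units and 100 by 1. The share recovered was 44.0% for changes of 0.5 and 79.8% for changes of 1, with 5 false calls. The number of changed genes that these shares are taken over is not given. The simulated noise was independent between libraries, without a line effect, and only those genes were changed. The recovery and false calls of the fit on the real libraries were therefore not measured.

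Libraries of a line come from the same cell line, so the line was also used as a replicate block. Deviations of same-line libraries from their group means correlated at 0.02 to 0.35 over all genes and at 0.14 to 0.80 over members. The alternatives were quantile normalization, removal of length trends, scaling to the same sum, another pseudocount, other filters, and leaving out each line.

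The members and gene lists were chosen with earlier results of these data known. Members were named in full if among the 3 largest called rises or falls of a comparison, the 3 highest or 3 lowest means, or a set fixed by role (Mrpl12, Mrpl10, Mrps12, Mrps18a, Mrps18b, Mrps18c, Mrps30, Mrpl37, Mrpl45, Mrpl44, Mrps28 and Mrps36). From each list up to 3 called genes with the largest WT 3 h change were named, except 1 that is not reported here. The coding length trend and the scaling to the same sum were added after seeing the data. Mrpl11, Mrpl46 with Mrps11, and the members listed by scaling, likeness or number of responses were chosen after their values were seen.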

Additional observations from a re-analysis of the deposited data

How the results depend on the processing

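The counts of called members depended on the spread estimate and the scaling. With the cell line as a replicate block they were 55 (WT 3 h), 53 (WT 6 h), 37 (null 3 h), 44 (null 6 h) and 7 (null 6 h against 3 h), and the block changed the side of the threshold for 6 further single-gene results. Leaving out 1 line gave 0 to 50 called at WT 3 h, 0 to 52 at WT 6 h, 0 to 35 at null 3 h and 0 to 32 at null 6 h, and for null against WT 0 to 47 in SB, 0 to 2 at 3 h, 0 to 36 at 6 h and 0 to 25 on line means. With the coding length trend removed, WT 3 h gave 12 up and 4 down (12% and 9.69% of all tested genes). WT 6 h then gave 7 up and 3 down (8.59% and 7.43%). With equal sums WT 6 h gave 7 up and 2 down (4.5% and 9.3%). With the transcript length trend removed it gave 9 and 2 (9.22% and 7.7%). Quantile normalization gave 18 up and 3 down at WT 3 h (10.7% and 13.2%). At WT 6 h it gave 15 and 3 (9.05% and 10.4%). Null 3 h gave 9 under quantile normalization (5 up and 4 down, against 7.52% and 8.6% of all tested genes). It gave 8 with the coding length trend removed (3 up and 5 down, against 7.7% and 7.02%). With the transcript length trend removed it gave 9 and with equal sums 20, most of them down, with the shares given above. Null 6 h gave 11 under quantile normalization (5 up and 6 down, against 7.49% and 7.86% of all tested genes). With equal sums it gave 3 (1 up and 2 down, against 3.42% and 4.98%). Null 6 h against 3 h gave 1 up and 0 down with equal sums (1.12% and 0.328% of all tested genes). The median changes, in log2 units, under quantile normalization were 0.14 (WT 3 h), 0.12 (WT 6 h), 0.07 (null 3 h) and 0.08 (null 6 h). In the same order they were 0.17, 0.17, 0.07 and 0.12 with the transcript length trend removed, and 0.17, 0.12, 0.09 and 0.09 with the coding length trend removed. With equal sums they were 0.03, 0.06, -0.08 and 0.04. The medians ran from 0.27 to 0.33 at WT 6 h and from 0.05 to 0.21 at null 3 h when 1 line was left out. At WT 3 h, where none of these genes was called, leaving out 1 line turned the direction of Mrpl37 (-0.09 to 0.03), Mrps18b (-0.06 to 0.02) and Mrps30 (-0.03 to 0.08), and quantile normalization that of Mrpl44 (-0.03) and Mrps30 (-0.09). Leaving out a WT line leaves 1 library in each WT group, so the spread in that fit comes from the null lines alone. This holds for the null comparisons too, whose values stay the same. Leaving out a null line leaves the spread to the WT lines. The cause of these shifts was otherwise not tested. The coding length trend and equal sums were chosen after seeing the data. WT 6 h gave 11 called, 10 up and 1 down, with a pseudocount of 0.1 (9.51% and 6.04% of all tested genes). It gave the same counts with no filter (9.02% and 5.97%). No filter also took null 6 h to 5 (Mrpl22 at a limma adjusted p of 0.051), 4 up and 1 down (7.18% and 5.09%). A filter at 5 FPKM raised the shares of all tested genes as well. It gave 26 up and 1 down at WT 3 h (17.8% and 12.8% of all tested genes), and 16 and 1 at WT 6 h (13.5% and 7.88%). In null lines it gave 2 up and 3 down at 3 h (7.56% and 10.7%), and 7 and 2 at 6 h (11.1% and 7.28%). Depth per library is unknown, so the counting error of the low members is too.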
